A study of Mus musculus with 21 samples.

Results

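The 10 genes described here encode proteins of the postsynaptic side of the neuromuscular junction and were chosen by name from the table of read counts, which lists 40853 genes. They are the 5 subunits of the muscle acetylcholine receptor (Chrna1, Chrnb1, Chrnd, Chrne and Chrng), the receptor tyrosine kinase Musk and its coreceptor Lrp4, the intracellular proteins Dok7 and Rapsn, and the enzyme acetylcholinesterase (Ache). All 10 were found in the table, and 9 of them had enough counts to be tested, as had 16129 genes in all. The exception was Chrng.

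The neuromuscular junction is the synapse at which a motor axon makes a muscle fibre contract. Agrin released by the axon binds LRP4, LRP4 activates MuSK, and MuSK with DOK7 and rapsyn clusters the acetylcholine receptors under the axon terminal, where acetylcholinesterase ends each signal. Most of these transcripts are made by the few nuclei of a fibre that lie under the synapse, and loss of the nerve is known to raise several receptor genes, Musk and the fetal subunit Chrng along the whole fibre.

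RNA was sequenced from the whole medial belly of the gastrocnemius, a mixed calf muscle with mostly fast fibres, of 21 female C57BL/6NJ mice that were 10 weeks old at the start. The Active group (7 mice) ran on a treadmill on 5 days per week for 6 weeks, in sessions that were lengthened over the first weeks to 40 min, the Activity Reduction group (7 mice) trained in the same way for 4 weeks before 2 weeks without training, and the Inactive group (7 mice) did not train during the 6 weeks. All mice, the Inactive mice included, took a maximal running test 48 to 72 h before collection, so no group was free of exercise, and all were fasted. Each mouse gave 1 library after poly(A) selection, and the p-values measure the spread between mice of 1 sex and strain.

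Between 38482455 and 59785132 reads were counted on genes per library, with medians of 53278181 in the Inactive, 46532461 in the Active and 49829192 in the Activity Reduction group. Levels are given as normalized counts, which are counts divided by the size factor of the library. The 8 muscle fibre markers (fast myosins and general genes such as Acta1 and Ckm) were counted in every library, at a summed 151637 to 182954 CPM (counts scaled to the same total in every library), while Chat, which marks cholinergic neurons, had a count of 0 in all 21 libraries. The 9 Schwann cell markers were all counted and summed to between 58.6 and 217.8 CPM, and the 10 motor axon markers to between 1.55 and 8.97 CPM. A list of 26 liver genes divided the libraries into 8 with more of these transcripts (897.6 to 2646.2 CPM) and 13 with fewer (204.8 to 414.7 CPM). The 8 were Active replicates 1 to 5, Activity Reduction replicates 1 and 2 and Inactive replicate 1. They were also the first 8 libraries in the order of the sample labels, and the 13 all came later. The division was uneven over the groups and cannot be told apart from sample order, whose meaning the labels do not give. At an unadjusted p under 0.05 with edgeR, 5 of 26 liver, 3 of 4 endothelial, 2 of 4 macrophage and 0 of 9 Schwann cell markers differed between Active and Inactive. Between Activity Reduction and Inactive, 0 of 26, 0 of 4, 0 of 4 and 1 of 9 of the same lists differed, with 1 of 2 satellite cell and 1 of 4 red blood cell markers. Between Activity Reduction and Active, 0 of 26 liver, 3 of 4 endothelial, 2 of 4 macrophage and 1 of 9 Schwann cell markers differed, all lower in Activity Reduction, and all 26 liver genes had a negative log2 fold change there. Over all genes, 10.9%, 7.73% and 13.3% passed this level in the 3 comparisons in this order. The 5 adipocyte and the 5 tested motor axon markers did not pass it in any.

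The promoters of the receptor genes are shown first, because the subunits share one complex and yet were counted at very different levels. The 250 bases before the start site were taken from RefSeq (GRCm38.p6), which matched 7 of the 10 genes by symbol (Chrnd, Lrp4 and Rapsn did not match), and were placed on GRCm39 by exact match. Capitals mark CAGCTG, a form of the E-box (CANNTG) that myogenic factors bind, and CCGGAA, the N-box that ETS factors such as GABP bind. All motifs were searched on both strands. The sequences read 5′ to 3′ on the strand of the gene. All windows end just before the RefSeq start, and positions below count from it. The window of Chrng lies inside the longer gene that GENCODE annotates, so it is not upstream of the locus given for Chrng below. Those of Chrna1, Chrnb1, Chrne and Musk reach past the GENCODE start into the gene. The 2 CAGCTG of Chrna1 and the CCGGAA of Chrne lie in that part, so they are not upstream of those loci. The windows of Ache and Dok7, not shown, lie inside or reach into their GENCODE genes too.
Chrna1 (GRCm39, chr2:73410683-73410932, minus strand): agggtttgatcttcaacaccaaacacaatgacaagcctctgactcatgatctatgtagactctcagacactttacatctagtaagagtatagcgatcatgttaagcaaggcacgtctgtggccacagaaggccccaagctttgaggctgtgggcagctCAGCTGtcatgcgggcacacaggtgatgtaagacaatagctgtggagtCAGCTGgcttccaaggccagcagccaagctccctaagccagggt
Chrnb1 (GRCm39, chr11:69686764-69687013, minus strand): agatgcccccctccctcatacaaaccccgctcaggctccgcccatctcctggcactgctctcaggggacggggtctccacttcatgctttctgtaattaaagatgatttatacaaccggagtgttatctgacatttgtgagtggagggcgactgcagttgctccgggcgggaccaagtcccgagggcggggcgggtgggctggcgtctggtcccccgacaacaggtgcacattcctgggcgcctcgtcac
Chrne (GRCm39, chr11:70510021-70510270, minus strand): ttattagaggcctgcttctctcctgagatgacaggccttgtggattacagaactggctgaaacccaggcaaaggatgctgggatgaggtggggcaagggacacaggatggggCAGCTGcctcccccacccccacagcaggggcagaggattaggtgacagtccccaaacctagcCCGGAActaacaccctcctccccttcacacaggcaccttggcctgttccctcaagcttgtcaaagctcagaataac
Chrng (GRCm39, chr1:87133283-87133532, plus strand): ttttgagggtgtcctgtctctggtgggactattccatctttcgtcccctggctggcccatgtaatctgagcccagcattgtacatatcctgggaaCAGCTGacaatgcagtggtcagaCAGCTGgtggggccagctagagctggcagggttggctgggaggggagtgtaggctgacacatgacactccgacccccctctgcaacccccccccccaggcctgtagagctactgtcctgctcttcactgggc
Musk (GRCm39, chr4:58285712-58285961, plus strand): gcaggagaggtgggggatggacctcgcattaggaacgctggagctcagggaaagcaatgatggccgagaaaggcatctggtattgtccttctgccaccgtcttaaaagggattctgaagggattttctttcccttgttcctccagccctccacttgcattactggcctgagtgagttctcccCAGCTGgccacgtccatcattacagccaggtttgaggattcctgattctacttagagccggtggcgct

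CAGCTG was found in the promoters of 4 of the 7 genes, against 13.0% of all 32851 RefSeq promoters of the same length. Chrna1 held it 2 times, from 92 to 87 and from 44 to 39 bases before the start, and Chrng also held it 2 times, from 155 to 150 and from 132 to 127 bases before the RefSeq start. Only 1.26% of all promoters held 2 or more. Chrne held it once (138 to 133 bases before the start) and Musk once (68 to 63 bases before the start). CCGGAA was found only in Chrne among the 7, 76 to 71 bases before the start, and in 12.0% of all promoters. The wider pattern CANNTG, which includes CAGCTG, was in all 7 genes and in 66.2% of all promoters. The sequence of Chrnb1, the subunit counted highest, held neither CAGCTG nor CCGGAA in this window. These are matches of letters, and binding was not measured.

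Per kb of transcript, the 10 genes spanned a range from near 0 to 736 normalized counts. Chrnb1, the beta subunit, had this highest median of the 21 libraries, followed by Ache (726), and these 2 did not separate, since Chrnb1 was the higher in 10 of 21 libraries. Rapsn, whose protein anchors the receptors, was at 379 and Chrne, the subunit of the adult receptor, at 355 per kb, with Rapsn the higher in 16 of 21 libraries. Dok7, the adaptor of MuSK, followed at 278 per kb and lay below Chrne in 18 of 21 libraries. Chrna1, whose protein holds most of the acetylcholine binding site, was at 160 and Musk at 152 per kb, and Chrna1 was the higher of these in 14 of 21 libraries. Lrp4 (97.9 per kb), Chrnd (42.5 per kb) and Chrng (0.82 per kb) were each below the gene before them in 21 of 21 libraries. Among the 15006 tested genes with an annotated length, Chrnb1 was at percentile 84.1 and Chrnd at percentile 31.9 of the median level per kb.

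**Figure D1:**
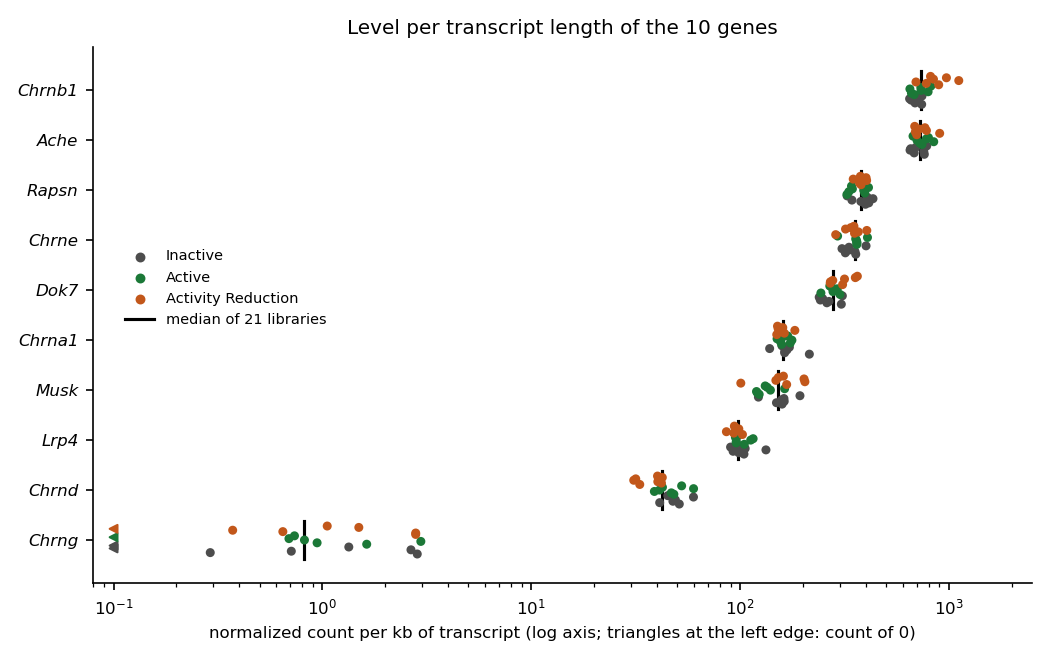
Normalized counts per kb of the canonical transcript (x, log axis) for the 10 genes (y), with 1 point per library coloured by group and a line at the median of the 21 libraries. Chrnb1 and Ache overlap at the top, Chrnd lies below Lrp4 in every library, and Chrng lies below 3 per kb, with triangles at the left edge for its 4 libraries with a count of 0.

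The adult receptor holds a pair of alpha subunits beside 1 beta, 1 delta and 1 epsilon subunit, and the transcripts did not follow these proportions. Within a library, the level of Chrnb1 per kb was between 3.45 and 6.09 times that of Chrna1 (median 4.61). Chrne was between 1.67 and 2.56 times Chrna1 (median 2.17), and Chrnd only between 0.169 and 0.398 times (median 0.266). The order depends on the annotated length. With the union of all annotated exons in place of the canonical transcript, Dok7 was at 124 per kb and moved from rank 5 to 7, and Ache was at 336 per kb and moved from rank 2 to 3. Chrna1 (4541 bp) also shares stretches of at least 100 bp at 95% identity or more with 131 other annotated genes, on either strand. Apart from the antisense gene Gm30940, the longest of these stretches was 203 bp. In the annotation, 601 bp of the exons of Chrna1 lie opposite Gm30940. Exons of Ache (302 bp), Musk (93 bp) and Rapsn (28 bp) lie opposite antisense genes too. The strand setting of the counting is not known, so reads of such partners cannot be told apart.

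The receptor of adult muscle contains the epsilon subunit, which replaces the gamma subunit of the fetus. Chrne (GRCm39 chromosome 11, 70505707 to 70510125, 12 exons) lay between 523 and 682 normalized counts in the Inactive group (median 566), between 499 and 693 in the Active group (median 616) and between 488 and 688 in the Activity Reduction group (median 597). The 3 groups overlapped over nearly their whole range. Chrng (GRCm39 chromosome 1, 87132379 to 87140416, 12 exons), which lies 4583 bp from Chrnd, had between 0 and 9 counts per library. Its counts summed to 24 in the Inactive group (0.0638 CPM, exact 95% Poisson interval 0.0409 to 0.0949), 20 in the Active group (0.0636 CPM, 0.0389 to 0.0983) and 26 in the Activity Reduction group (0.0722 CPM, 0.0472 to 0.106), and these intervals cover counting error only. Chrng had a count of 0 in 2 Inactive, 1 Active and 1 Activity Reduction library. The log2 ratio of Chrne to Chrng (pseudocount 1) was 7.62 ± 1.35 (SD, n = 7) in the Inactive, 7.46 ± 1.04 in the Active and 7.31 ± 1.20 in the Activity Reduction group, and the smallest exact permutation p of the 3 comparisons was 0.646 (two-sided), with log2 differences between -0.31 and -0.15 and an SE of at least 0.60. A group difference in this ratio was not detectable at these counts. Chrng had more counts in the 8 libraries with more liver transcripts (43 counts, 0.115 CPM, interval 0.0835 to 0.155, 0 libraries at 0) than in the 13 with fewer (27 counts, 0.0398 CPM, interval 0.0262 to 0.0579, 4 libraries at 0), and the part of the liver transcripts in this was not tested. In a whole muscle, fewer nuclei that express a gene and fewer transcripts per nucleus cannot be told apart, and this holds for every gene below.

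Comparing the groups across all genes, 0 of the 9 tested junction genes passed the thresholds (Benjamini-Hochberg adjusted p under 0.05 and a log2 fold change over 0.25 in either direction) in any of the 3 comparisons with edgeR's quasi-likelihood test. Over all 16129 genes this test called 0% in Active against Inactive, 0.0124% in Activity Reduction against Inactive and 0% in Activity Reduction against Active. At an unadjusted p under 0.05, 0 of 9 junction genes differed between Active and Inactive, where 10.9% of all genes did. In Activity Reduction against Inactive, 3 of 9 differed at this level (Chrnb1 and Dok7 higher, Chrnd lower), against 7.73% of all genes. In Activity Reduction against Active, 3 of 9 did (Chrnb1 and Musk higher, Chrnd lower), against 13.3% of all genes. These 2 comparisons share the Activity Reduction libraries. In no comparison did the groups of a junction gene lie fully apart, which 0.254%, 0.118% and 0.291% of all genes did in the 3 comparisons in this order. The median log2 fold change of the 9 genes was -0.0038, 0.014 and -0.0076, beside 0.0052, 0.0057 and -0.00065 over all genes.

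With DESeq2, 1 junction gene was called, Chrnb1 in Activity Reduction against Inactive, both when fitted on the 3 groups (0.252% of all genes called) and on only the 2 groups compared (0.302%). In Active against Inactive 0 of 9 were called (0.424% and 0.553% of all genes), and in Activity Reduction against Active 0 of 9 were called (0.869% and 0.906%).

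**Figure D2:**
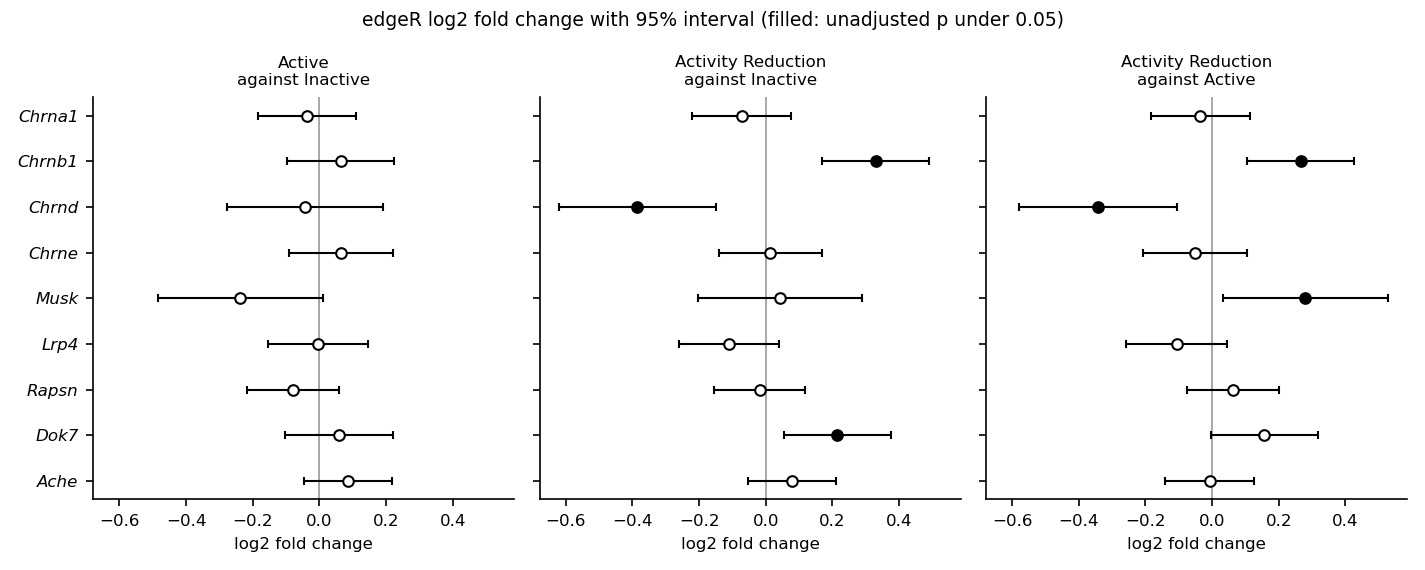
Log2 fold change from edgeR (x) with its 95% interval for the 9 tested genes (y) in the 3 comparisons, with filled points at an unadjusted p under 0.05. All 9 intervals include 0 in Active against Inactive, and 3 genes in each of the other comparisons have intervals that exclude it.

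Chrnb1 encodes the beta subunit, whose cytoplasmic part is phosphorylated downstream of MuSK (GRCm39 chromosome 11, 69674860 to 69686773, 11 exons). It lay between 1399.9 and 1605 normalized counts in the Inactive group (median 1495), between 1405 and 1768 in the Active group (median 1584) and between 1502 and 2407 in the Activity Reduction group (median 1821). In the Activity Reduction group, 6 of 7 libraries were above the highest Inactive library and 4 of 7 above the highest Active library, and only replicate 3 lay among the Inactive values. The highest value (2407) came from replicate 4, which also stood apart over all genes. Its chi-square per degree of freedom against the other libraries of its group was between 82.3 and 108. For any other pair within a group it was at most 46.3. No group comparison was fitted without this library. The mean was 1887 ± 297 (SD, n = 7) in the Activity Reduction group and 1504 ± 78.5 in the Inactive group, a difference of 25.4%. The log2 fold change was 0.33 (SE 0.0772, 95% interval 0.17 to 0.49, edgeR adjusted p = 0.199). With DESeq2 on the 3 groups it was 0.33 with an adjusted p of 0.0202, and over 8 alternatives to the edgeR fit the adjusted p ranged from 0.0202 to 0.360. With the slow fibre level as a covariate, a further alternative described below, it was 0.634, and the fold change kept its direction in all 9. Against the Active group the log2 fold change was 0.27 (SE 0.0774, 95% interval 0.11 to 0.43, edgeR adjusted p = 0.154), and DESeq2 on the 3 groups gave an adjusted p of 0.0534 (0.0534 to 0.981 over the alternatives). Active against Inactive, it was 0.06 (95% interval -0.10 to 0.22, edgeR adjusted p = 0.804). Activity Reduction against Inactive, it was 0.36 when the fit held only libraries with fewer liver transcripts.

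Chrnd encodes the delta subunit (GRCm39 chromosome 1, 87118306 to 87127795, 12 exons). It was the least abundant of the 4 adult subunits and lay between 123 and 178 normalized counts in the Inactive group (median 143), between 116 and 179 in the Active group (median 139.7) and between 92.3 and 126 in the Activity Reduction group (median 120.0). Here 5 of 7 Activity Reduction libraries were below the lowest Inactive library, and 0 of 7 were above the median of either other group. The mean was 111 ± 15.2 (SD, n = 7) in the Activity Reduction group and 146 ± 17.2 in the Inactive group. The log2 fold change was -0.39 (SE 0.114, 95% interval -0.62 to -0.15, edgeR adjusted p = 0.353) against the Inactive group and -0.34 (SE 0.114, 95% interval -0.58 to -0.11, edgeR adjusted p = 0.196) against the Active group. Active against Inactive, it was -0.04 (95% interval -0.28 to 0.19, edgeR adjusted p = 0.922). Chrnd had 88 to 189 reads per library, and DESeq2 on the 3 groups gave no adjusted p for it in Activity Reduction against Inactive, while on these 2 groups alone its adjusted p was 0.166 (0.166 to 0.581 over the alternatives that gave one, and 0.731 with the slow fibre level as a covariate). Chrnb1 and Chrnd thus had fold changes of opposite sign in the same mice, although their proteins sit in one complex.

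Chrna1 encodes the alpha subunit (GRCm39 chromosome 2, 73393557 to 73410835, 9 exons). It lay between 629 and 974.9 normalized counts in the Inactive group (median 744), between 683 and 804 in the Active group (median 723) and between 681 and 831 in the Activity Reduction group (median 722). The highest value (974.9) came from Inactive replicate 1, one of the libraries with more liver transcripts. The log2 fold changes of Chrna1 were -0.04 for Active against Inactive, -0.07 for Activity Reduction against Inactive and -0.03 for Activity Reduction against Active. Their 95% intervals were -0.19 to 0.11, -0.22 to 0.08 and -0.18 to 0.11. The log2 fold changes of Chrne were 0.07, 0.01 and -0.05 in the same order, with the lowest edgeR adjusted p at 0.794.

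**Figure D3:**
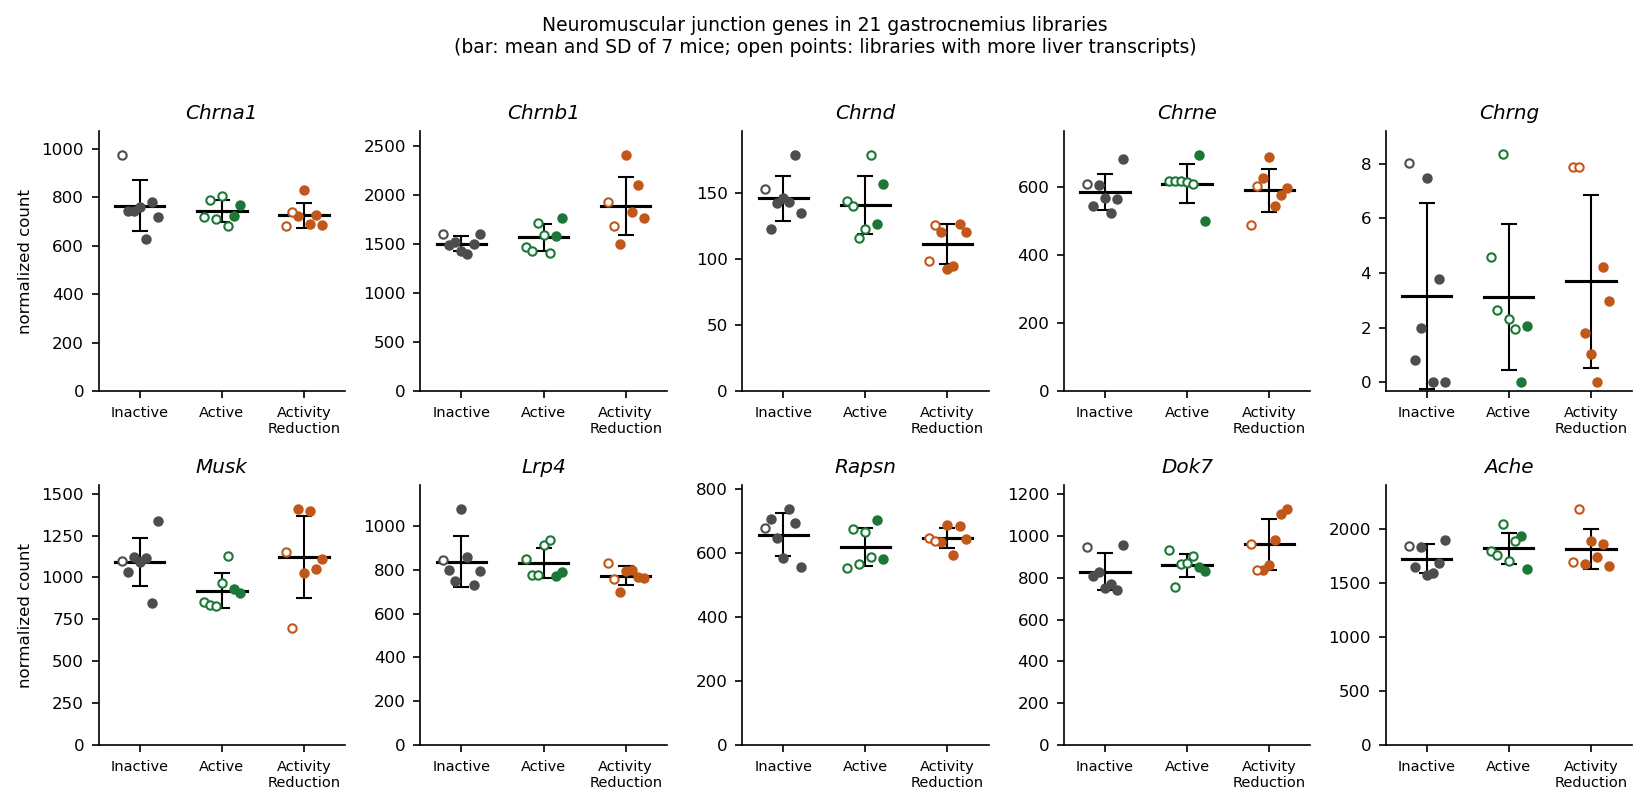
Normalized counts (y, from 0 except for Chrng, whose error bar reaches below it) of the 10 genes in the 3 groups, with 1 point per mouse, the mean as a line and the SD as a bar (n = 7), and open points for libraries with more liver transcripts. Of the 7 Activity Reduction values of Chrnb1, 6 lie above the highest Inactive and 4 above the highest Active value. Of those of Chrnd, 5 lie below the lowest Inactive and 3 below the lowest Active value. The groups overlap in every gene, and over most of their range in Chrna1, Chrne, Rapsn and Ache.

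Because the subunits assemble into one receptor, their ratios within a library were also compared, in 18 two-sided exact permutation tests of 6 ratios, with p-values that are not adjusted. The log2 ratio of Chrnb1 to Chrna1 (counts, not per kb) was between 0.71 and 1.15 in the Inactive group (median 1.00), between 0.85 and 1.27 in the Active group (median 1.04) and between 1.06 and 1.53 in the Activity Reduction group (median 1.40). In 6 of 7 Activity Reduction libraries it was above every Inactive library. The mean log2 difference was 0.38 (SE 0.0907, exact permutation p = 0.00233) against the Inactive and 0.29 (SE 0.0878, exact permutation p = 0.00932) against the Active group, and 0.09 for Active against Inactive (exact permutation p = 0.279). The log2 ratio of Chrnd to Chrna1 was between -2.67 and -2.13 in the Inactive, between -2.70 and -1.93 in the Active and between -3.16 and -2.51 in the Activity Reduction group, where 3 of 7 libraries were below both other groups. Its mean log2 difference was -0.32 (SE 0.120, exact permutation p = 0.0169) against the Inactive and -0.30 (SE 0.133, exact permutation p = 0.0344) against the Active group. The ratios of Chrne to Chrna1 and of Rapsn to Chrna1 did not pass in any comparison (smallest exact permutation p = 0.366 and 0.0932), with log2 differences between -0.02 and 0.09 and between -0.05 and 0.10. The smallest p such a test of 7 against 7 can give is 0.000583.

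**Figure D4:**
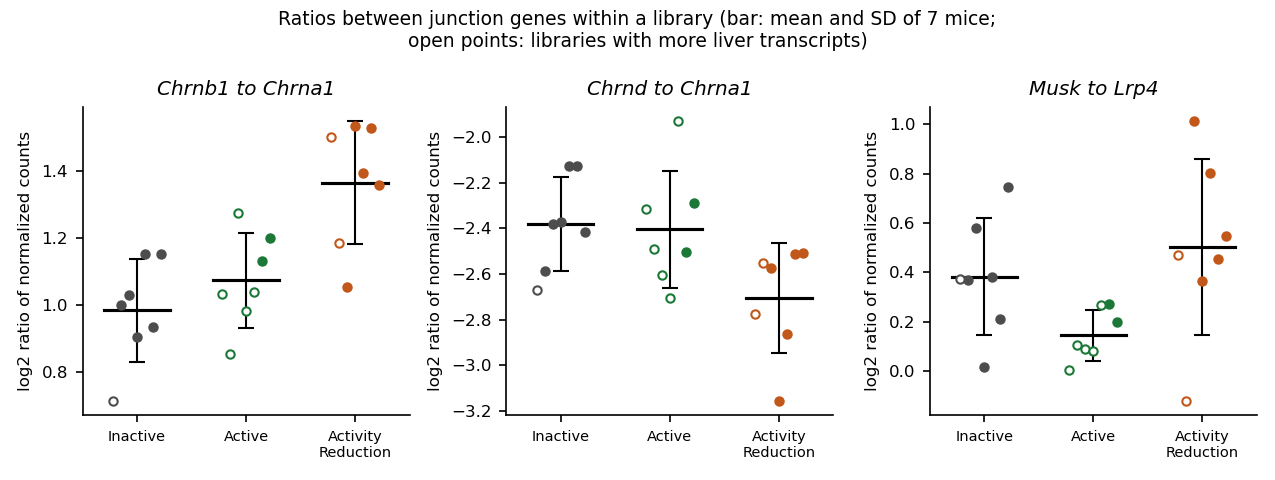
Log2 ratios of normalized counts (y) of Chrnb1 to Chrna1, Chrnd to Chrna1 and Musk to Lrp4 in the 3 groups, with 1 point per mouse, the mean as a line and the SD as a bar (n = 7), and open points for libraries with more liver transcripts. Mean log2 ratios in the Activity Reduction group are 1.37 for Chrnb1 to Chrna1 and -2.71 for Chrnd to Chrna1, beside 0.98 and -2.38 in the Inactive group.

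Musk encodes the kinase that organises the junction (GRCm39 chromosome 4, 58285931 to 58377847, 14 exons). It lay between 845 and 1335 normalized counts in the Inactive group (median 1096), between 827 and 1128 in the Active group (median 910.1) and between 695 and 1409.8 in the Activity Reduction group (median 1113), where its coefficient of variation (21.7%) was the highest of any tested junction gene in any group. The Active libraries lay at the lower end, with only 1 of 7 above the Inactive median, and the Activity Reduction group reached both below and above the others. The log2 fold change was -0.24 for Active against Inactive (SE 0.119, 95% interval -0.48 to 0.01, edgeR adjusted p = 0.476) and 0.28 for Activity Reduction against Active (SE 0.119, 95% interval 0.03 to 0.53, edgeR adjusted p = 0.320). It was 0.04 for Activity Reduction against Inactive (95% interval -0.20 to 0.29). Of the 7 Active libraries 5 had more liver transcripts, and with that division as a covariate the fold change of Active against Inactive was -0.16. In only the libraries with fewer liver transcripts (2 Active and 6 Inactive), this fold change was -0.24. The part of the liver transcripts in it was not tested.

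Lrp4, the receptor for agrin (GRCm39 chromosome 2, 91287797 to 91344248, 38 exons), lay between 730.3 and 1079 normalized counts in the Inactive group (median 799), between 770.3 and 936 in the Active group (median 792) and between 698 and 832 in the Activity Reduction group (median 768). Its log2 fold changes were -0.0038, -0.11 and -0.11 in the 3 comparisons, with edgeR adjusted p between 0.546 and 0.990. The log2 ratio of Musk to Lrp4 was 0.38 ± 0.24 (SD, n = 7) in the Inactive, 0.15 ± 0.10 in the Active and 0.50 ± 0.36 in the Activity Reduction group. It differed by -0.24 for Active against Inactive and by 0.36 for Activity Reduction against Active (exact permutation p = 0.0256 for each), and 6 of 7 Activity Reduction libraries were above the highest Active library while 1 was below the lowest.

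Dok7 encodes the adaptor that binds MuSK from inside the fibre (GRCm39 chromosome 5, 35213886 to 35246018, 7 exons). It lay between 742 and 957 normalized counts in the Inactive group (median 807), between 756 and 932 in the Active group (median 863) and between 838 and 1129 in the Activity Reduction group (median 959.7). All 7 Activity Reduction libraries were above the Inactive median and 4 were above the highest Inactive library. The log2 fold change of Activity Reduction against Inactive was 0.21 (SE 0.0775, 95% interval 0.05 to 0.38, edgeR adjusted p = 0.495), below the fold threshold of 0.25, and 0.28 when only the libraries with fewer liver transcripts were fitted. It was 0.16 against the Active group (95% interval -0.0047 to 0.32). Rapsn, which links the receptors to the cytoskeleton (GRCm39 chromosome 2, 90865892 to 90876082, 8 exons), lay between 554 and 737 normalized counts in the Inactive, between 553 and 701 in the Active and between 593 and 687 in the Activity Reduction group. Its groups overlapped, and its log2 fold changes were -0.08, -0.02 and 0.06, with no 95% interval beyond 0.22 in size.

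Ache encodes the enzyme that splits acetylcholine (GRCm39 chromosome 5, 137285781 to 137292728, 5 exons). It lay between 1577 and 1895 normalized counts in the Inactive group (median 1681), between 1629 and 2047 in the Active group (median 1799) and between 1659.9 and 2186 in the Activity Reduction group (median 1744). Its log2 fold changes were 0.09, 0.08 and -0.0076 in the 3 comparisons, with edgeR adjusted p between 0.652 and 0.974. Colq and Prima1 encode the proteins that anchor the enzyme, Colq in the basal lamina of the junction and Prima1 in membranes, and are named for this role after their values were seen. Colq had a mean of 460.3 ± 71.4 normalized counts (SD, n = 7) in the Inactive, 399 ± 48.6 in the Active and 357 ± 33.9 in the Activity Reduction group. The log2 fold change of Colq for Activity Reduction against Inactive was -0.36 (SE 0.0956, edgeR adjusted p = 0.320). Prima1 had means of 448 ± 179, 435 ± 109 and 749 ± 276 in these groups, and its log2 fold change was 0.74 (SE 0.236, edgeR adjusted p = 0.445) against the Inactive and 0.78 (SE 0.237, edgeR adjusted p = 0.168) against the Active group. Neither anchor passed the thresholds.

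The levels of Chrnb1 and Chrnd were related to those of slow fibre transcripts over the libraries, in opposite directions. The 7 slow fibre markers (such as Myh7, the slow myosin heavy chain) had a median log2 fold change of -0.59 in Activity Reduction against Inactive, with 4 of 7 at an unadjusted p under 0.05 and 0 past the thresholds. It was -0.41 in Activity Reduction against Active, with 7 of 7 negative and 1 of 7 at this level, and -0.18 in Active against Inactive, with 0 of 7. Their summed level was between 1845 and 2378 CPM in the Inactive, between 951 and 2259 in the Active and between 598 and 1947 in the Activity Reduction group. Over the 21 libraries, the log2 level of Chrnb1 and that of the slow fibre list had a Pearson r of -0.73 (permutation p = 0.00077, 0.0173 after adjustment over the 45 relations computed) and a Spearman rho of -0.49 (permutation p = 0.0247, adjusted 0.222). For Chrnd and the list, r was 0.61 (permutation p = 0.00308, adjusted 0.0462) and rho 0.58 (permutation p = 0.00741, adjusted 0.0834). Both relations rested in part on Activity Reduction replicates 1 and 4, the libraries farthest from the median of the slow fibre level. Without them r was -0.43 for Chrnb1 (permutation p = 0.0651) and 0.31 for Chrnd (permutation p = 0.191). Within the 13 libraries with fewer and the 8 with more liver transcripts, r was -0.81 and -0.83 for Chrnb1, and 0.63 and 0.70 for Chrnd. The permutations shuffled libraries across the groups, so all these p-values include differences between the groups. After the group means were subtracted, r was -0.57 and 0.37, and no p was computed for these. With the slow fibre level as a covariate, added after the data were seen, the log2 fold change of Activity Reduction against Inactive was 0.19 for Chrnb1 in place of 0.33, and -0.27 for Chrnd in place of -0.39. For Activity Reduction against Active it was 0.16 for Chrnb1 in place of 0.27, and -0.26 for Chrnd in place of -0.34.

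**Figure D5:**
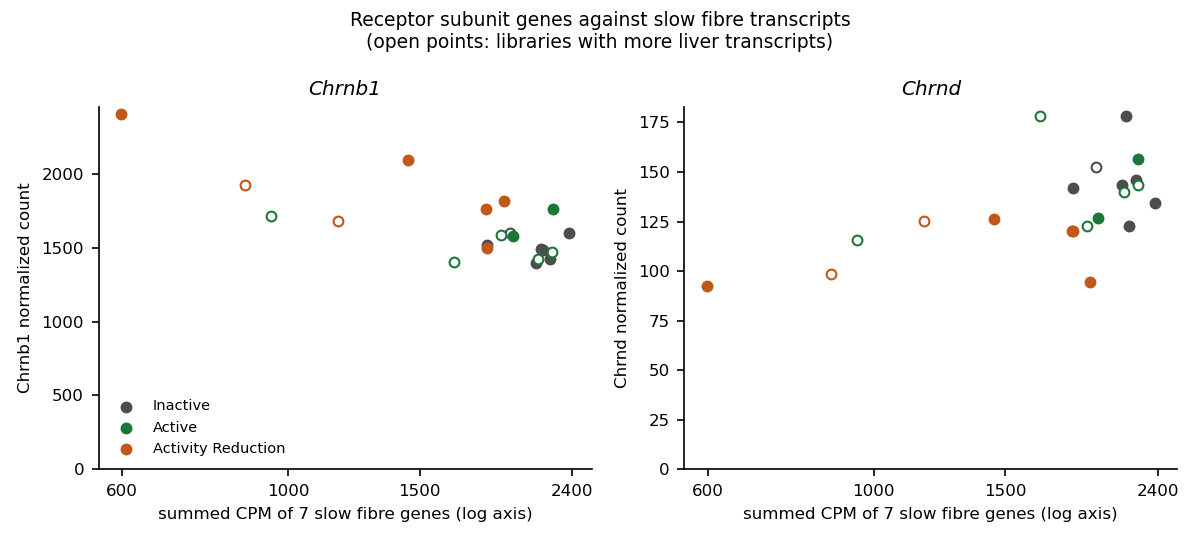
Normalized counts of Chrnb1 and Chrnd (y) against the summed CPM of 7 slow fibre genes (x, log axis), with 1 point per mouse coloured by group and open points for libraries with more liver transcripts. Activity Reduction replicate 4 has the lowest slow fibre level (598 CPM), the highest Chrnb1 (2407) and the lowest Chrnd (92.3).

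Among the 36 pairs of tested junction genes, Chrnb1 and Chrnd were related over the 21 libraries with a Pearson r of -0.68 (permutation p = 0.0006, adjusted 0.0173) and a Spearman rho of -0.62 (permutation p = 0.00335, adjusted 0.0654), and r was -0.39 after the group means were subtracted. The permutations for these pairs also ignored the groups, and no p was computed for the r after subtraction. Without the 2 libraries farthest from the median of Chrnb1, r was -0.66, and within the 13 and the 8 libraries of the liver division it was -0.62 and -0.87. Chrne and Ache had the largest positive relation, with an r of 0.57 (permutation p = 0.00778, adjusted 0.0875) and a rho of 0.62 (permutation p = 0.00312, adjusted 0.0654), which was 0.77 and 0.34 within the liver division and 0.53 without the 2 libraries farthest from the median of Chrne.

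Among the partners of the MuSK pathway, 0 of 21 genes passed the thresholds with edgeR in any comparison. Agrn, which encodes agrin and is named here for its role after its values were seen, had means of 1052 ± 108 normalized counts (SD, n = 7) in the Inactive, 1111 ± 65.7 in the Active and 1042 ± 118 in the Activity Reduction group. Pak1, a kinase of the actin cytoskeleton, had the smallest p of the list in both comparisons of the Activity Reduction group, with means of 2213 ± 83.9 in the Inactive, 2016 ± 285 in the Active and 1613 ± 218 in the Activity Reduction group. The log2 fold change of Pak1 was -0.45 (SE 0.0857, edgeR adjusted p = 0.106) against the Inactive and -0.32 (SE 0.0858, edgeR adjusted p = 0.129) against the Active group, and the highest Activity Reduction library (1879.7) lay below the lowest Inactive library (2099). The groups lay fully apart in 0.118% of all genes in this comparison. Pak1 was picked from the list by its p there, so this separation is no separate support. Fyn, a kinase of the SRC family, led in Active against Inactive at 0.30 (edgeR adjusted p = 0.231). Cdc42, the small GTPase with the highest level of the list per kb, had log2 fold changes between -0.07 and -0.0019.

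Of the 18 genes of the synaptic scaffold and basal lamina, 0 passed with edgeR, while 5 differed at an unadjusted p under 0.05 in Active against Inactive (4 higher), 5 in Activity Reduction against Inactive (3 higher) and 8 in Activity Reduction against Active (3 higher), beside 10.9%, 7.73% and 13.3% of all genes. Lama4, a laminin chain that vessels also make, had a log2 fold change of 0.44 in Active against Inactive (SE 0.100, edgeR adjusted p = 0.159) and of -0.37 in Activity Reduction against Active (SE 0.100, edgeR adjusted p = 0.130). The study, which used DESeq2, reported Lama4 as differentially expressed in these comparisons, with the higher level in the Active group. In the same 2 comparisons the 4 endothelial markers had median log2 fold changes of 0.14 and -0.17, and their part in the values of Lama4 was not tested.

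Of the neuregulin and ETS factor genes, 9 of 10 were tested and 0 passed with edgeR. Gabpa, which encodes the DNA-binding part of GABP, had the highest level of the list per kb and the smallest p in Activity Reduction against Inactive (edgeR adjusted p = 0.952). It had means of 1601 ± 75.1 normalized counts (SD, n = 7) in the Inactive, 1657 ± 61.0 in the Active and 1566 ± 114 in the Activity Reduction group. Etv5 had the smallest p in both comparisons with the Active group, with log2 fold changes of 0.16 (edgeR adjusted p = 0.416) and -0.14 (edgeR adjusted p = 0.365).

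Genes known to respond to denervation were measured beside the junction genes, and 0 of 14 passed with edgeR. At an unadjusted p under 0.05 with edgeR, 2 were higher and 2 lower in Active against Inactive, beside 10.9% of all genes. In Activity Reduction against Inactive 0 differed at this level (7.73% of all genes). In Activity Reduction against Active 1 was higher and 2 were lower (13.3% of all genes). The median log2 fold changes of the 14 genes were 0.015, -0.045 and -0.025 in the 3 comparisons. Myog, the myogenic factor that activates receptor genes after nerve loss and is likewise named for its role, had means of 225 ± 57.8 normalized counts (SD, n = 7) in the Inactive, 209.8 ± 63.8 in the Active and 213 ± 46.9 in the Activity Reduction group, with a 95% interval of -0.45 to 0.30 for the log2 fold change of Activity Reduction against Inactive. Myh8, the perinatal myosin, had the smallest p in both comparisons with the Active group, with log2 fold changes of 0.22 (edgeR adjusted p = 0.291) and -0.23 (edgeR adjusted p = 0.175). Dach2, a repressor of Myog, had the smallest p in Activity Reduction against Inactive, at -0.30 (SE 0.197, edgeR adjusted p = 0.780). Trim63, a ubiquitin ligase of muscle wasting, had the highest level of the list per kb and a log2 fold change of 0.19 (edgeR adjusted p = 0.846) in this comparison.

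Of the 11 nicotinic receptor genes outside the muscle receptor, listed as neuronal, 4 were tested and 0 passed with edgeR. Their summed level was between 4.05 and 7.60 CPM, and Chrna3, Chrna6, Chrnb3 and Chrnb4 had a count of 0 in every library. Chrna10, the highest of them per kb and the gene with the smallest p in both comparisons with the Active group, had means of 198 ± 30.5, 174 ± 25.4 and 199.6 ± 30.2 normalized counts (SD, n = 7) in the Inactive, Active and Activity Reduction group. Its log2 fold changes in these comparisons were -0.17 and 0.19 (edgeR adjusted p = 0.603 and 0.488). Chrna9 had the smallest p of the list in Activity Reduction against Inactive, at a log2 fold change of -0.66 (SE 0.477, edgeR adjusted p = 0.812) with between 0 and 24 reads per library.

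The tested genes whose levels followed Chrna1, Musk and Ache most closely were ranked by Spearman's rho over the 21 libraries, as a description in which the points share group, depth and the liver division. For Chrna1 these were Plxna3 (0.73), Serpinb6b (0.69), Dmpk (0.68), Nudt1 (0.68) and Zkscan4 (0.68). For Musk they were Smcr8 (0.80), Zrsr1 (0.77), Nrip1 (0.76), Gm5785 (0.76) and Cep85l (0.75). For Ache they were Zfp217 (0.74), Ssc4d (0.73), Chchd4 (0.71), Pctp (0.69) and Tmem50a (0.69). Over only the 13 libraries with fewer of the liver transcripts, the rho of the gene listed first was 0.66 for Chrna1, 0.83 for Musk and 0.60 for Ache.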

How the data were processed

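RNA from the medial gastrocnemius of 21 mice, 7 per group, was sequenced with 1 library per mouse. The authors used fastp for trimming, STAR for alignment to GRCm39 and featureCounts for counting per gene. Raw read counts were deposited. The annotation and the strand setting are not given in the sources used here. A table labelled as normalized held the same 857913 values, so the raw counts were used. Counts of at least 38482455 per library set the depth.

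All genes that passed filterByExpr were fitted in edgeR 4.0.16 (TMM, quasi-likelihood test, 3 groups) with Benjamini-Hochberg adjustment, and 16129 were tested. The thresholds (adjusted p under 0.05, fold change over 0.25) follow the study's methods, which name no scale for the fold change, while a legend gives the threshold as a percent change. The log2 scale was used here. No junction gene reached the adjusted p with edgeR, so the scale decides none of these calls. Normalized counts were counts divided by size factors of DESeq2 1.42.0, which was also run as an alternative with its Wald test. Single values, ratios (pseudocount 1) and correlations (100000 permutations) were tested by exact or random permutation. Lengths and loci came from GENCODE on GRCm39, and 93.0% of the tested genes had a length. Libraries were divided by liver transcripts at the widest gap in their summed level that left at least 3 on each side.

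The fits were tested on simulated data. The members and gene lists were chosen with earlier results of these data known. All 10 members are named. Of each pathway list, the gene with the highest level per kb and the gene with the smallest p in each comparison are named, and of the genes most alike, the 5 with the highest rho. Agrn, Colq, Prima1 and Myog are named outside this rule, and 1 gene that the rule names is not reported here.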

Additional observations from a re-analysis of the deposited data

Results flagged for a closer look

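In 2 of the 30 sets of 7 libraries (10 genes in 3 groups) the highest library stood apart from the others of its group by Dixon's test, where chance flags about 1 in 20. Chrna1 was at 830.7 normalized counts in Activity Reduction replicate 4, with the next library at 739.9 and the lowest at 680.6. This library also stood apart from its group over all genes, as given for Chrnb1. Lrp4 was at 1078.7 normalized counts in Inactive replicate 4, with the next library at 857.7 and the lowest at 730.3.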

How the results depend on the processing

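Of the 27 counts of junction genes called under an alternative, 25 equalled the count reported, and with DESeq2 on the 3 groups and on the 2 groups compared 1 gene in place of 0 was called in Activity Reduction against Inactive, Chrnb1 (log2 fold change 0.326 and 0.325, adjusted p 0.0202 and 0.0345). Of the log2 fold changes under alternatives, 233 kept their direction and their side of the thresholds and 8 changed sign, none of them called. These were Chrna1 in the libraries with fewer liver transcripts (0.035 in Active against Inactive and 0.0014 in Activity Reduction against Inactive) and when the fit also held the liver division (0.0046 in Activity Reduction against Active), Chrne in the libraries with fewer liver transcripts (0.019 in Activity Reduction against Active), Ache with the liver division in the fit (0.035 in Activity Reduction against Active), Lrp4 with the replicate block (0.00077 in Active against Inactive), and, in Activity Reduction against Inactive with the slow fibre level as a covariate, Chrne (-0.022) and Ache (-0.011). Of the ratios, 5 changed sign: Chrne to Chrng in Active against Inactive with a pseudocount of 5 (0.018), and in the libraries with fewer liver transcripts Chrne to Chrng (0.512) and Chrne to Chrna1 (-0.0099) in Active against Inactive, Chrne to Chrna1 in Activity Reduction against Active (0.070) and Rapsn to Chrna1 in Activity Reduction against Inactive (-0.0089). The cause of these changes of sign was not tested. Another 4 ratios no longer passed in those libraries, all in comparisons with the Active group, of which only 2 libraries remained, so that few arrangements were left for the exact test. In Activity Reduction against Active the log2 differences were 0.400 for Musk to Lrp4, -0.327 for Chrnd to Chrna1 and 0.209 for Chrnb1 to Chrna1, and in Active against Inactive -0.147 for Musk to Lrp4 (0.359, -0.301, 0.292 and -0.236 over all libraries). The replicate numbers did not pair the mice (correlations of same-numbered libraries from -0.234 to 0.439), and the fit with the replicate block changed no call of a junction gene (Chrnb1 0.324 in Activity Reduction against Inactive, adjusted p 0.264). With the union of exons as length, 6 of 10 median levels per kb moved by more than the SD between libraries. With 0 to 9 reads per library, depth limits any statement on Chrng.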
